A study of Arabidopsis thaliana with 12 samples.

Results

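The iSB09 response of CsPYL1_5m seedlings differed from that of WT seedlings, by more than 1 on the log2 scale with an adjusted p below 0.05, for 1961 of 20081 tested Arabidopsis genes (9.77%, out of 37336 gene identifiers measured by RNA-seq). The difference was taken as the response of CsPYL1_5m plants (iSB09 against mock) minus the response of WT plants, and each gene was then placed by the signs of the 2 responses. A stronger increase was found for 1145 genes, a weaker increase for 10, a stronger decrease for 263 and a weaker decrease for 3, where stronger and weaker describe CsPYL1_5m plants relative to WT. The responses had opposite signs for the other genes, of which 348 were up in CsPYL1_5m plants and 192 were down in CsPYL1_5m plants.

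Seedlings of 4 groups were compared, with 3 samples in each. CsPYL1_5m seedlings overexpressed, from the 35S promoter, an HA-tagged sweet orange ABA receptor CsPYL1 with 5 substitutions, in the Col-0 background. They were homozygous T3 progeny of floral-dip transformants, and WT was untransformed Col-0. Both genotypes were treated for 3 hours with 5 μM iSB09, a synthetic ABA receptor agonist, or with 0.1% DMSO as mock. The labels give 12 days in liquid media and the methods give seedlings of 10 days. The replicates are described as 3 independent experiments. The transgene itself was not analysed here, and a line that expresses the unmodified CsPYL1 was not part of these samples, so an effect of the 5 substitutions and one of receptor overexpression cannot be told apart.

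ABA is the plant hormone of drought and seed dormancy. ABA-bound receptors of the PYR/PYL family inhibit clade A PP2C phosphatases, and SnRK2 kinases, no longer held inactive by these phosphatases, phosphorylate transcription factors of the ABF/ABI5 family and guard cell ion channels. The ABF/ABI5 factors bind ABA-responsive elements, whose core is ACGTG, in the promoters of genes for protective proteins, compatible sugars and the pathway's own phosphatases.

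Promoters of 4 genes described in detail below are shown as examples, because the ACGTG core was found at different frequencies in the direction classes. Each run holds the 250 bases before the annotated start in the TAIR10.1 assembly, read 5′ to 3′ on the strand of the gene, and capitals mark ACGTG on either strand (ACGTG or CACGT). LTI65 (also RD29B, a hydrophilic stress protein gene; chr5:21236771-21237020, plus strand) and HAI3 (a clade A PP2C; chr2:12608425-12608674, plus strand) belonged to the stronger increase class. PYL4 (an ABA receptor; chr2:16049668-16049917, plus strand) belonged to the stronger decrease class, and RAV2 (a transcription factor; chr1:25879905-25880154, plus strand) had opposite responses and was down in CsPYL1_5m plants.
LTI65: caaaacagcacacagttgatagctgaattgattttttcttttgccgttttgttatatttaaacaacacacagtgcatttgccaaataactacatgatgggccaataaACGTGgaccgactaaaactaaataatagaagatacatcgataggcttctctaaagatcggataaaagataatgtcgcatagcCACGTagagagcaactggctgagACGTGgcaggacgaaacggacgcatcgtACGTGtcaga
HAI3: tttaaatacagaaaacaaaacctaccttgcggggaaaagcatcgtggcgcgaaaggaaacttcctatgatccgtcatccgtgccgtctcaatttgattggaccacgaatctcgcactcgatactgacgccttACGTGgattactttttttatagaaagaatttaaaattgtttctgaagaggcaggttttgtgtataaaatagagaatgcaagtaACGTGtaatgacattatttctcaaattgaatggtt
PYL4: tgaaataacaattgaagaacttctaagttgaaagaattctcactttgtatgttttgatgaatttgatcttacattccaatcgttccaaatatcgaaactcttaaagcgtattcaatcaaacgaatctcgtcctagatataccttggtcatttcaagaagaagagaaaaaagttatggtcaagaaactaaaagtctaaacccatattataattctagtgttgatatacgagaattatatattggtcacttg
RAV2: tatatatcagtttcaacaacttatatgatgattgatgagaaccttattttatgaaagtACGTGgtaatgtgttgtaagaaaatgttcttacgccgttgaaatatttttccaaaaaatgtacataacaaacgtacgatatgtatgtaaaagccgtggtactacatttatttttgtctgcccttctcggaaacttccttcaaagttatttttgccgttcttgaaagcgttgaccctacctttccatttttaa
LTI65 held 4 such cores, HAI3 held 2, RAV2 held 1 and PYL4 held 0. The same 250 bases of TMAC2 (opposite and up in CsPYL1_5m plants) and AT1G80440 (a weaker increase), not printed, held 0.

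Over the window from 250 bases before to 50 bases after the start, 50.8% of the promoters of the stronger increase class held ACGTG on either strand, compared with 28.2% of promoters of all genes tested and 24.6% of all annotated promoters. The share was 39.0% for opposite genes up in CsPYL1_5m plants, 24% for the stronger decrease class and 22.4% for opposite genes down in CsPYL1_5m plants. Among stronger increase genes it was 52.2% where the WT response also passed the test and 48.9% where it did not. The core occurred at 2 or more separate places in 20.6% of stronger increase promoters and in 7.06% of all promoters tested. The longer form ACGTGTC was present in 17.2% of stronger increase promoters, 8.09% of opposite promoters up in CsPYL1_5m plants, 0.76% of stronger decrease promoters and 5.17% of all tested. The palindrome CACGTG, which contains the core on both strands, was present in 23.1% of stronger increase promoters and 8.97% of all tested. TGGGCC was less frequent in stronger increase promoters (10.5%) than over all tested (18.4%), but this was not specific to that class. The share was lower still for opposite genes up (8.09%) and down (5.73%) in CsPYL1_5m plants and for stronger decreases (4.56%). A match of letters is a description of the window and not a measured binding site.

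The response was higher in CsPYL1_5m plants for 1496 of the called genes (7.45% of those tested) and lower for 465 (2.32%). Over all genes tested, the response passed the test for 11334 genes (56.4%) in CsPYL1_5m plants and 5506 genes (27.4%) in WT. With an absolute log2 above 1 as well, 2162 genes rose (10.8%) and 1190 fell (5.93%) in CsPYL1_5m plants, and 510 rose (2.54%) and 338 fell (1.68%) in WT. In the stronger increase class the median response was 2.27 on the log2 scale in CsPYL1_5m plants and 0.54 in WT, with a median difference of 1.64. The 1145 genes (5.7% of those tested) had a median of 38.6 TPM in CsPYL1_5m iSB09 samples and 6.18 TPM in CsPYL1_5m mock samples, against 11.9 TPM in WT iSB09 samples and 6.48 TPM in WT mock samples. All 1145 passed the test of the CsPYL1_5m response, and 669 also passed the test of the WT response. For 157 of them (13.7%) the WT response lay within 1 SE of 0, so that its sign, which sets the class, was not resolved.

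The stronger decrease class (263 genes, 1.31% of those tested) had a median response of -1.94 in CsPYL1_5m plants and -0.56 in WT, and 152 of its genes passed the test of the WT response. Its median was 4.05 TPM in CsPYL1_5m iSB09 samples and 22.5 TPM in CsPYL1_5m mock samples, against 13.9 TPM in WT iSB09 samples and 22.8 TPM in WT mock samples. The median ratio of the WT to the CsPYL1_5m response was 0.24 for stronger increases and 0.29 for stronger decreases. The classes with a weaker response in CsPYL1_5m plants were small, at 10 genes (0.0498%) and 3 genes (0.0149%). All 10 and all 3 passed the test of the WT response, but only 4 and 1 of them passed that of the CsPYL1_5m response. For the others the sign of the CsPYL1_5m response, which sets the class, was not resolved by the test.

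The opposite classes were larger but rested on small WT responses. The median WT response was -0.26 in the 348 genes up in CsPYL1_5m plants (1.73% of those tested), where the CsPYL1_5m median was 1.16. It was 0.41 in the 192 genes down in CsPYL1_5m plants (0.956%), where the CsPYL1_5m median was -0.98. Both responses passed the test for 40 of the 348 and for 34 of the 192, and for 3 genes both also exceeded 1 on the log2 scale. The WT response lay within 1 SE of 0 for 135 of the 348 (38.8%) and 56 of the 192 (29.2%). Genes in the opposite classes are therefore described below as opposite in sign.

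**Figure D1:**
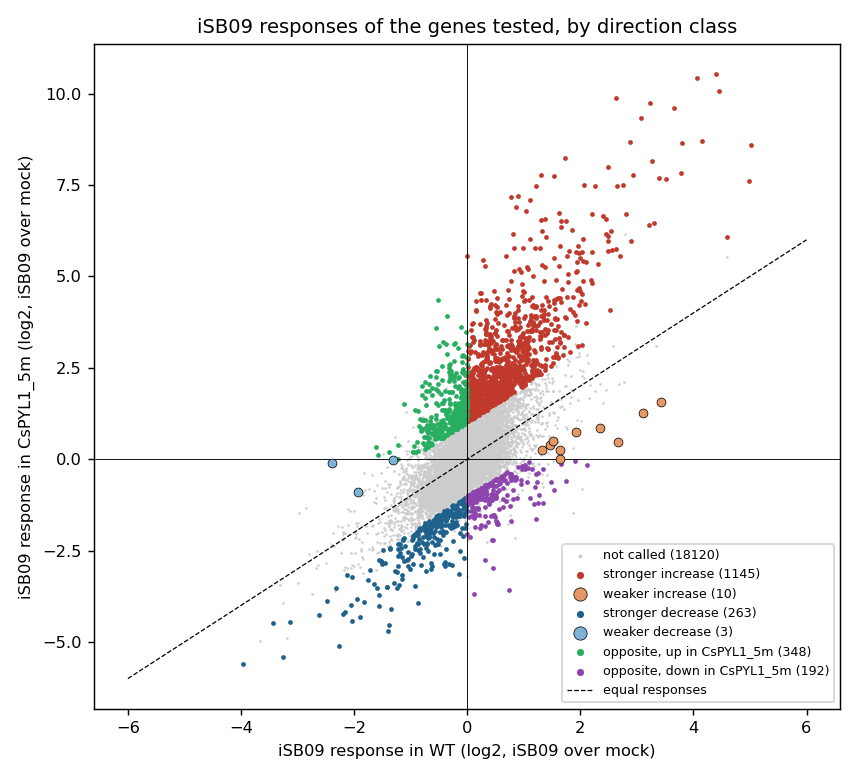
iSB09 response of each tested gene in WT (x axis) and in CsPYL1_5m plants (y axis), log2 fold change of iSB09 over mock on log2(TPM + 0.5) values, coloured by direction class, with genes not called in grey. The 1145 stronger increases lie above the diagonal on the right of 0, the 263 stronger decreases lie below it on the left, and the opposite genes mostly lie close to the vertical line at a WT response of 0.

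Without ligand the classes did not separate the genotypes. In mock samples the median difference between CsPYL1_5m and WT plants was -0.03 for stronger increases, 0.03 for stronger decreases, -0.02 for opposite genes up in CsPYL1_5m plants and 0.04 for opposite genes down in CsPYL1_5m plants. None of the 1961 genes was among the 11 called between the genotypes in mock samples (9 up, 0.0448%, and 2 down, 0.00996%, by limma, with 14 genes, 0.0697%, at an adjusted p below 0.05 whatever their fold). Under iSB09 the corresponding medians were 1.61, -1.34, 1.44 and -1.33, and over all genes the genotypes differed at an adjusted p below 0.05 for 46.9%, with 7.96% called up and 3.03% called down. A mock difference of more than 1 in either direction was measured for 2 stronger increases, 4 opposite genes up in CsPYL1_5m plants and 3 opposite genes down. The class medians of the mock comparison are not independent of the classes, since the same mock samples enter the difference.

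**Figure D2:**
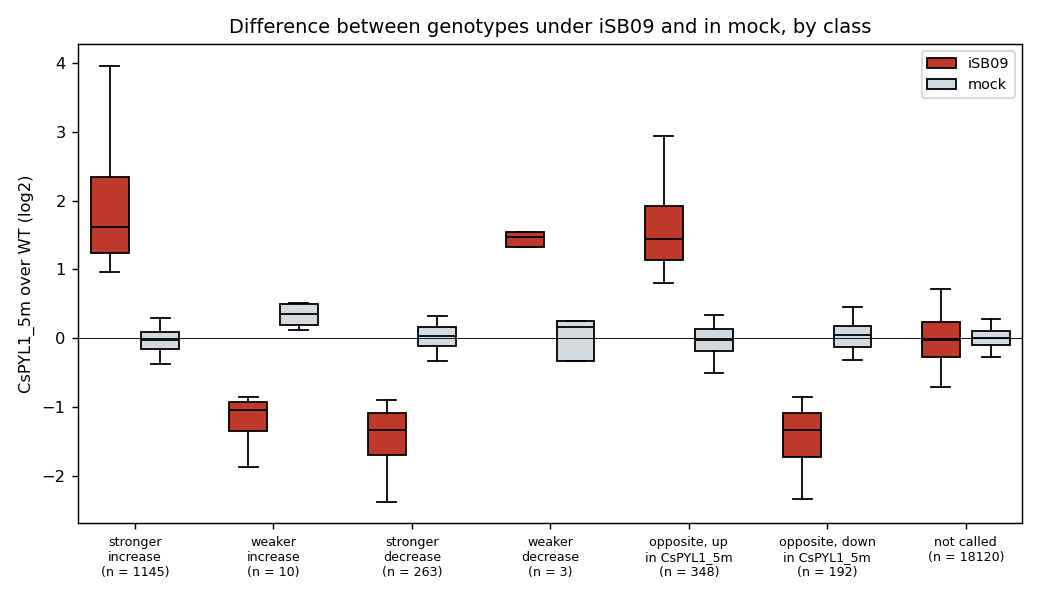
Difference between CsPYL1_5m and WT plants (log2, y axis) by direction class, under iSB09 (red, left) and in mock samples (grey, right), with boxes from the 25th to the 75th percentile of genes and whiskers from the 5th to the 95th. Under iSB09 the medians are 1.61 for stronger increases and -1.34 for stronger decreases, while all mock medians of these and the opposite classes lie within 0.05 of 0.

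Protein-coding genes of the 4 larger classes had fewer exons at the median than all protein-coding genes tested. The median was 3 exons in each of these classes and 5 over all protein-coding genes tested. Among protein-coding genes, a single exon was annotated for 30.7% of opposite genes up in CsPYL1_5m plants and 22.7% of stronger decreases. The share was 20% of stronger increases and 19.3% of opposite genes down in CsPYL1_5m plants, compared with 13.4% of all protein-coding genes tested.

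Several facts of the libraries bear on these counts. Reads on genes, recovered from the deposited values, numbered 25745976 to 30696765 in the 6 CsPYL1_5m samples and 21501581 to 21753888 in the 6 WT samples, so depth and genotype cannot be told apart. Per-sample levels below are TPM as deposited, while responses and differences are on log2(TPM + 0.5) after median-ratio scaling, which understates changes of genes near 0. The size of a difference of such a gene also depends on the added 0.5 TPM (the pseudocount). Scaling matters because the factors of the CsPYL1_5m iSB09 samples (0.894 to 0.924) lay below all others (0.9995 to 1.06). With the deposited TPM left unscaled, 1933 genes were called, with 62.6% higher in CsPYL1_5m plants in place of 76.3%, and the median difference over all genes was -0.16 in place of -0.01. WT iSB09 replicate 2 was the lowest of its group for 255 of the 348 opposite genes up in CsPYL1_5m plants (73.3%, compared with 46.6% of all genes tested) and the highest for 138 of the 192 down (71.9%, compared with 34.7%). Without it the classes held 1251 stronger increases, 7 weaker increases, 320 stronger decreases, 3 weaker decreases and 273 and 168 opposite genes, and 213 of the 348 and 118 of the 192 kept their opposite class. Without WT iSB09 replicate 1 they held 1076, 29, 249, 11, 464 and 305. Markers of shoot (RBCS1A, LHCB1.1, LHCB2.1 and PSBO1) and root (PYK10, RCI3, PRX72 and CASP1) were present in every sample with 0 of 8 called, and fewer cells of a type and less RNA per cell cannot be told apart in whole seedlings.

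**Figure D3:**
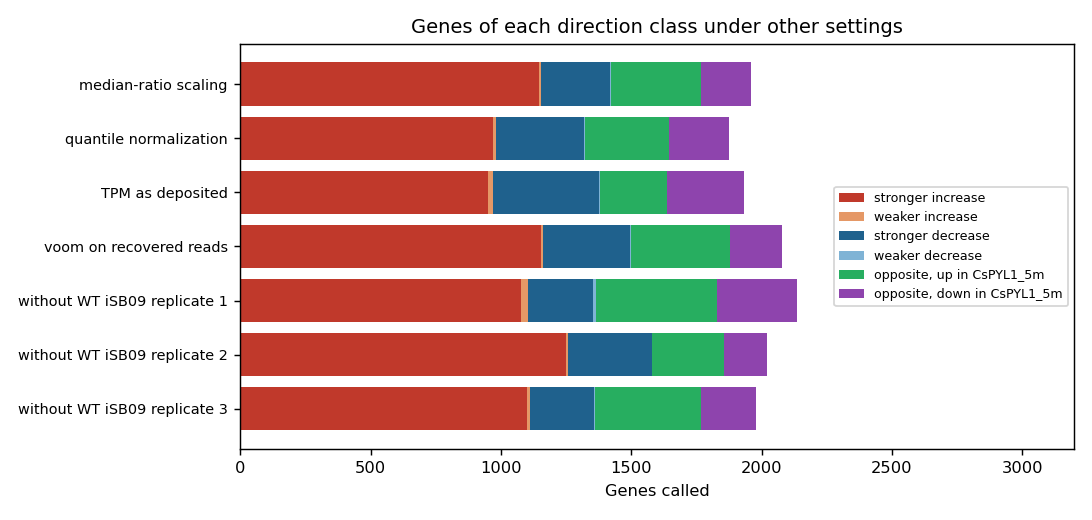
Number of called genes in each direction class (x axis) in the fit reported and under 6 alternatives, from quantile normalization, unscaled TPM and limma voom on recovered reads to the fits without each WT iSB09 replicate. The stronger increase class is the largest in each of these, at 951 genes or more. The opposite classes (up and down in CsPYL1_5m plants), 348 and 192 in the fit reported, hold 464 and 305 genes without WT iSB09 replicate 1. They hold 256 and 296 with unscaled TPM, 273 and 168 without WT iSB09 replicate 2, and 408 and 210 without WT iSB09 replicate 3.

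The stronger increase class held the negative regulators of the pathway. All 9 clade A PP2C phosphatases, which keep SnRK2 kinases inactive, were called in this class, compared with 5.7% of all genes tested. Over all genes tested 9.77% were called in any class, 1.31% as stronger decreases, and 1.73% and 0.956% as opposite genes up and down in CsPYL1_5m plants. The class counts of gene lists below stand against these shares. HAI3 had 63.7, 76.7 and 80.1 TPM in CsPYL1_5m iSB09 samples and 0.0353, 0.0374 and 0.107 TPM in CsPYL1_5m mock samples, against 0.364, 0.524 and 0.472 TPM in WT iSB09 samples and 0.0517, 0.05 and 0.0521 TPM in WT mock samples. The CsPYL1_5m iSB09 samples stood above all others, and the mock levels rested on 5 reads in CsPYL1_5m plants and 3 reads in WT over 3 samples each. The difference between the responses was 6.41 ± 0.19 (SE; adjusted p = 6.2e-09, limma). HAI3 passed the filter of 1 TPM only through the CsPYL1_5m iSB09 samples. With mock levels below the added 0.5 TPM, the size of its difference depends on the pseudocount. HAI1 reached 288, 330.5 and 320 TPM in CsPYL1_5m iSB09 samples and 0.298, 0.572 and 0.246 TPM in CsPYL1_5m mock samples, against 12.97, 12.57 and 14.99 TPM in WT iSB09 samples and 0.713, 0.383 and 0.399 TPM in WT mock samples. Its response was 8.65 in CsPYL1_5m plants and 3.80 in WT, both past the test. HAI2 and ABI2 had differences of 5.51 ± 0.20 and 3.88 ± 0.16, and over the 9 phosphatases the differences ran from 1.62 to 6.41. AHG1, named after its values were seen, was the 1 member whose WT response did not pass (0.25, adjusted p = 0.39), at 2.17, 2.01 and 2.39 TPM in CsPYL1_5m iSB09 samples against 0.446, 0.1 and 0.5 TPM in WT iSB09 samples.

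The stronger increases also included kinases and transcription factors of the pathway. Of 10 SnRK2 kinases 3 were stronger increases (30%, compared with 5.7% of all genes tested). SNRK2.7 had 82.7, 93.4 and 107 TPM in CsPYL1_5m iSB09 samples and 2.53, 2.44 and 2.60 TPM in CsPYL1_5m mock samples, against 8.52, 3.59 and 5.72 TPM in WT iSB09 samples and 2.79, 2.49 and 2.65 TPM in WT mock samples, with a difference of 4.17 ± 0.30. OST1, the kinase of stomatal closure, had a difference of 1.40 ± 0.15 (adjusted p = 3.7e-05), with responses of 1.95 and 0.55 in CsPYL1_5m and WT plants. Of 8 tested ABF/ABI5 family factors 5 were stronger increases, all 5 with a WT response past the test. ABF3 had 239, 275 and 297 TPM in CsPYL1_5m iSB09 samples and 15.7, 17.5 and 18.3 TPM in CsPYL1_5m mock samples, against 62.7, 52.7 and 60.9 TPM in WT iSB09 samples and 20.9, 16.8 and 21.4 TPM in WT mock samples. Its difference was 2.54 ± 0.15, and those of GBF3, ABI5 and ABF2 were 2.96, 2.41 and 2.04. Of 6 genes of the ABA-activated MAP kinase cascade 3 were called, with MAPKKK18 at 5.11 ± 0.24 and MAPKKK17 at 3.52 ± 0.35, and the WT response of MAPKKK17 did not pass the test (0.50, adjusted p = 0.15).

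Hormone synthesis and breakdown were both represented. NCED3, the dioxygenase of the committed step of ABA synthesis, had 12.6, 16.3 and 15.9 TPM in CsPYL1_5m iSB09 samples and 0.542, 0.675 and 0.607 TPM in CsPYL1_5m mock samples, against 2.25, 1.06 and 1.47 TPM in WT iSB09 samples and 0.651, 0.629 and 0.998 TPM in WT mock samples. The difference was 3.24 ± 0.28 (adjusted p = 7.6e-06), and 3 of 6 tested synthesis genes were stronger increases. Of the 4 ABA hydroxylase genes, which inactivate the hormone, 2 were called, and CYP707A1 had a difference of 2.67 ± 0.24 with responses of 4.43 in CsPYL1_5m plants and 1.76 in WT.

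Genes for protective proteins were among those with large differences. LTI65 had 456, 636 and 704 TPM in CsPYL1_5m iSB09 samples and 0.195, 0.129 and 0.271 TPM in CsPYL1_5m mock samples, against 5.26, 3.76 and 4.84 TPM in WT iSB09 samples and 0.463, 0.0688 and 0.466 TPM in WT mock samples. Its difference of 7.24 ± 0.30 (adjusted p = 4.0e-08) was the highest of all genes tested, with responses of 9.87 in CsPYL1_5m plants and 2.63 in WT. All mock levels of LTI65 lay below the added 0.5 TPM, so the size of its difference depends on the pseudocount. Of 13 cold and drought marker genes 12 were stronger increases, 11 with a WT response past the test. COR15A, a chloroplast cryoprotectant, had 1356, 1587 and 1492 TPM in CsPYL1_5m iSB09 samples and 4.82, 6.55 and 4.78 TPM in CsPYL1_5m mock samples, against 171, 15.1 and 121 TPM in WT iSB09 samples and 4.56, 6.97 and 9.08 TPM in WT mock samples. WT iSB09 replicate 2 was far below its group for this gene, and the difference was 4.88 ± 0.92 with it and 3.83 without it. Of 39 tested LEA proteins and dehydrins, which protect proteins and membranes during drying, 22 were stronger increases and 1 was opposite and up in CsPYL1_5m plants, with a median difference of 2.04 over the 39 compared with -0.01 over all genes tested. The single opposite member became 3 without WT iSB09 replicate 1 or WT mock replicate 1. AT3G02480 reached 1279, 1611 and 1714 TPM in CsPYL1_5m iSB09 samples and 1.15, 0.102 and 1.36 TPM in CsPYL1_5m mock samples, against 29.2, 18.7 and 22.7 TPM in WT iSB09 samples and 1.97, 0.407 and 0.708 TPM in WT mock samples. LEA7 and AT3G17520 had differences of 6.52 ± 0.40 and 6.27 ± 0.21.

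The genes AT3G27250 and AT5G05220, to which no role is given here, stood beside these. AT3G27250 had 121, 151 and 163 TPM in CsPYL1_5m iSB09 samples and 0, 0.0308 and 0.0589 TPM in CsPYL1_5m mock samples, against 2.53, 0.908 and 0.952 TPM in WT iSB09 samples and 0.0426, 0 and 0.0859 TPM in WT mock samples (difference 6.50 ± 0.35). AT5G05220 had 95, 120 and 123 TPM in CsPYL1_5m iSB09 samples and 0.137, 0.0723 and 0 TPM in CsPYL1_5m mock samples, against 0.704, 0.609 and 1.02 TPM in WT iSB09 samples and 0 reads in all WT mock samples. The fitted difference of AT5G05220 depends on the pseudocount and is not given as a fold. That of AT3G27250 depends on it too, since all its mock levels lay below the added 0.5 TPM. Both genes passed the filter of 1 TPM only through the CsPYL1_5m iSB09 samples.

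Sugar and proline metabolism followed. GolS2, which makes galactinol for raffinose, had 58.7, 73.2 and 83.9 TPM in CsPYL1_5m iSB09 samples and 0.0368, 0.0778 and 0 TPM in CsPYL1_5m mock samples, against 1.19, 0.492 and 0.656 TPM in WT iSB09 samples and 0.108, 0.208 and 0.163 TPM in WT mock samples. The difference was 6.29 ± 0.28, and its size depends on the pseudocount, since all mock levels lay below the added 0.5 TPM. GolS2 passed the filter of 1 TPM only through the CsPYL1_5m iSB09 samples. Of 7 tested genes of galactinol and raffinose synthesis 4 were stronger increases, 2 of them with a WT response past the test. GolS3 was opposite and up in CsPYL1_5m plants, with a WT response of -0.805 that did not pass the test, and STS was a weaker decrease. P5CS1, the first enzyme of proline synthesis, rose in both genotypes by the test (5.54 in CsPYL1_5m plants and 2.70 in WT), with a difference of 2.85 ± 0.19. ERD5, which codes for the proline dehydrogenase of proline breakdown, was opposite in sign and down in CsPYL1_5m plants, at 32.3, 30.7 and 38.0 TPM in CsPYL1_5m iSB09 samples and 97.6, 70.8 and 77.0 TPM in CsPYL1_5m mock samples, against 62.8, 158 and 90.7 TPM in WT iSB09 samples and 90.2, 79.8 and 69.3 TPM in WT mock samples. Its WT response did not pass the test (0.28, adjusted p = 0.46), and without WT iSB09 replicate 2 its difference of -1.38 became -1.01 and its class a stronger decrease.

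Trehalose phosphate enzymes, which include synthases and phosphatases, had 4 of 15 tested members among stronger increases and 2 among opposite genes up in CsPYL1_5m plants. TPPF had 22.8, 23.4 and 26.4 TPM in CsPYL1_5m iSB09 samples and 3.05, 2.88 and 2.27 TPM in CsPYL1_5m mock samples, against 3.08, 2.53 and 2.98 TPM in WT iSB09 samples and 2.67, 2.92 and 2.73 TPM in WT mock samples. The CsPYL1_5m iSB09 samples stood apart and the WT groups overlapped, with a WT response of 0.03 (adjusted p = 0.86) whose sign alone placed TPPF among the increases. TPPE, at a WT response of -0.07 (adjusted p = 0.86), was placed among the opposite genes, with a difference of 2.52 ± 0.34. Lipid transfer proteins contrasted with these in having a large WT response: LTP3 had 587, 809 and 882 TPM in CsPYL1_5m iSB09 samples and 4.81, 4.36 and 2.57 TPM in CsPYL1_5m mock samples, against 138, 148 and 201 TPM in WT iSB09 samples and 3.72, 4.08 and 6.28 TPM in WT mock samples. It was 1 of 2 stronger increases among 5 tested lipid transfer proteins.

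Transcription factors of several families were called. Among 81 tested MYB factors 22 were stronger increases, 3 stronger decreases, 8 opposite and up in CsPYL1_5m plants and 1 opposite and down, and without WT iSB09 replicate 1 the stronger decreases numbered 1. Among 57 NAC factors the counts were 18, 0, 4 and 2, and 5 of 14 class I HD-Zip factors were stronger increases, all 5 with a WT response past the test. Stronger increases were 27.2% of the MYB, 31.6% of the NAC and 35.7% of the HD-Zip factors, compared with 5.7% of all genes tested. MYB102 had 43.4, 46.5 and 65.2 TPM in CsPYL1_5m iSB09 samples and 0.0378, 0.04 and 0.0383 TPM in CsPYL1_5m mock samples, against 4.62, 3.14 and 3.54 TPM in WT iSB09 samples and 0.0554, 0.0535 and 0.167 TPM in WT mock samples. The NAC factor RD26, a regulator of dehydration responses, had a difference of 3.13 ± 0.15 with responses of 5.76 and 2.63, and the senescence factor NAP one of 3.97 ± 0.38 with 5.50 and 1.53 in CsPYL1_5m and WT plants. Of 8 CBF and DREB2 factors, which bind the drought- and cold-responsive element, 5 were stronger increases but 1, DREB2A, had a WT response past the test (1.49). HSFA6B, a heat shock factor, had 352, 407.5 and 442 TPM in CsPYL1_5m iSB09 samples and 1.44, 2.09 and 1.52 TPM in CsPYL1_5m mock samples, against 30.7, 25.9 and 31.9 TPM in WT iSB09 samples and 2.06, 2.08 and 2.96 TPM in WT mock samples.

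Genes of the plant surface were called in both classes with a higher response. Of 12 wax synthesis genes 9 were stronger increases, 1 was a stronger decrease and 1 was opposite and up in CsPYL1_5m plants. MYB96, an activator of wax synthesis, had a difference of 2.48 ± 0.29, and MYB30, another wax regulator, was the stronger decrease (-1.41 ± 0.14). The WT response of MYB30 did not pass the test (-0.0087), so the sign that sets its class was not resolved. It was called in all 12 fits that each left out 1 sample but kept its class in 9. CER1, which makes wax alkanes, had 204, 257 and 248 TPM in CsPYL1_5m iSB09 samples and 6.64, 9.89 and 10.7 TPM in CsPYL1_5m mock samples, against 35.7, 56.7 and 54.6 TPM in WT iSB09 samples and 12.0, 7.15 and 11.7 TPM in WT mock samples (difference 2.61 ± 0.32). Of 13 suberin genes, which build the root and wound barrier, 6 were stronger increases and 5 opposite and up in CsPYL1_5m plants, but 2 of these 11 had a WT response past the test. MYB41, a regulator of suberin, had a difference of 4.79 ± 0.33 with responses of 5.78 and 0.98 in CsPYL1_5m and WT plants. GPAT5, an acyltransferase of suberin, had 48.2, 50.9 and 64.2 TPM in CsPYL1_5m iSB09 samples and 4.86, 7.79 and 6.86 TPM in CsPYL1_5m mock samples, against 5.94, 2.35 and 5.33 TPM in WT iSB09 samples and 5.33, 3.96 and 6.11 TPM in WT mock samples. The CsPYL1_5m iSB09 samples stood apart and the WT groups overlapped (WT response -0.23, adjusted p = 0.57). WT iSB09 replicate 2 was the lowest of its group for GPAT5, GPAT7, CYP86B1, FAR5, ABCG6 and ABCG20. The WT responses of CYP86B1, FAR5 and ABCG20, which like GPAT5 were opposite in sign, were -0.31, -0.15 and -0.09 (adjusted p = 0.57, 0.68 and 0.76). Without that replicate 10 of the 13 suberin genes were stronger increases and 1 was opposite, while without WT iSB09 replicate 1 these counts were 3 and 9.

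**Figure D4:**
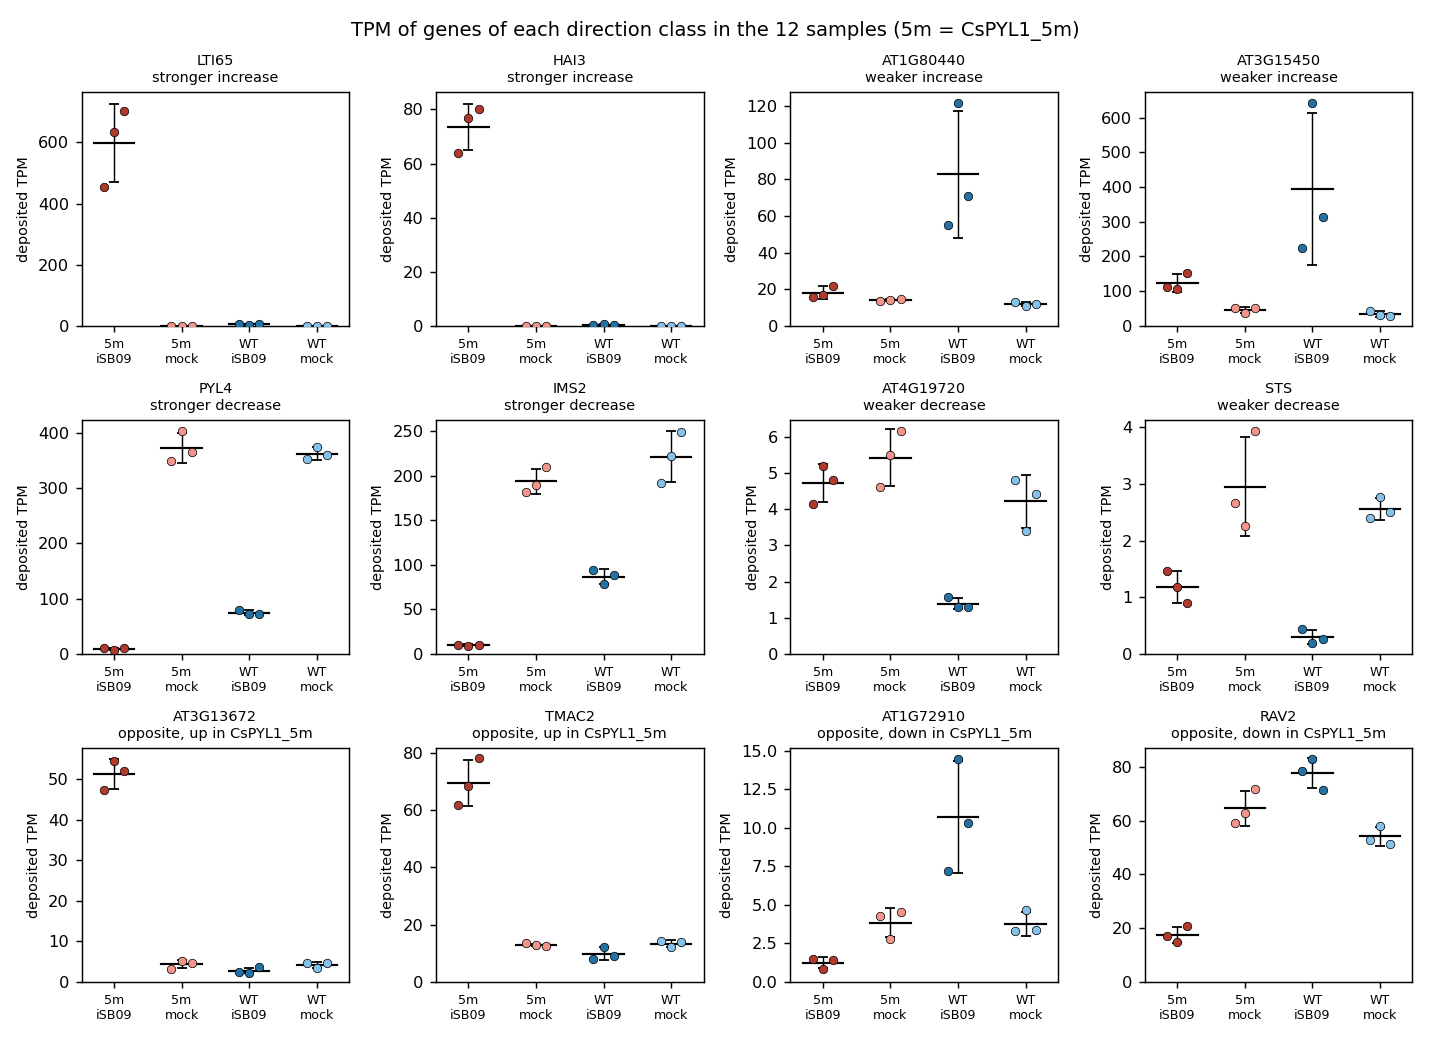
Deposited TPM of 12 genes (y axis, linear and starting at 0) in the 4 groups, with CsPYL1_5m iSB09, CsPYL1_5m mock, WT iSB09 and WT mock from left to right; points are the 3 replicates, lines the means and bars the SD. The panels hold a pair of genes from each direction class: LTI65 at 456 to 704 TPM and PYL4 at 7.21 to 10.6 TPM in CsPYL1_5m iSB09 samples lie outside the ranges of the other 3 groups.

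The stronger decrease class held ABA receptors. Of 9 tested receptor genes 4 were called, all 4 in this class. PYL4 had 10.64, 7.21 and 10.04 TPM in CsPYL1_5m iSB09 samples and 349, 402 and 364 TPM in CsPYL1_5m mock samples, against 79.6, 71.9 and 72.3 TPM in WT iSB09 samples and 352, 374 and 360 TPM in WT mock samples. The mock groups overlapped and each iSB09 group stood apart, with responses of -5.11 in CsPYL1_5m plants and -2.27 in WT and a difference of -2.83 ± 0.16 (adjusted p = 3.4e-07). PYL5 and PYL6 had differences of -1.75 ± 0.21 and -1.65 ± 0.26, both with a WT response past the test. RCAR3 (PYL8) had 30.08, 22.01 and 24.02 TPM in CsPYL1_5m iSB09 samples and 81.9, 79.2 and 78.3 TPM in CsPYL1_5m mock samples, against 65.4, 84.9 and 71.3 TPM in WT iSB09 samples and 78.3, 75.5 and 73.6 TPM in WT mock samples, and its WT response did not pass (-0.05, adjusted p = 0.79).

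Genes of glucosinolate synthesis, sugar and nitrate transport were also in this class. IMS2, annotated as 2-isopropylmalate synthase 2, had 10.05, 8.604 and 10.19 TPM in CsPYL1_5m iSB09 samples and 182, 189 and 209 TPM in CsPYL1_5m mock samples, against 94.2, 77.9 and 88.0 TPM in WT iSB09 samples and 192, 222 and 249.5 TPM in WT mock samples (difference -2.76 ± 0.15). The 4 called of 18 glucosinolate genes were all stronger decreases with a WT response past the test, led by CYP79F2 (-2.33 ± 0.18), an enzyme of aliphatic glucosinolates, and MYB28 (-1.40 ± 0.26), their regulator. This count was 7 without WT iSB09 replicate 2, without CsPYL1_5m iSB09 replicate 3 or without WT mock replicate 2, and 8 with unscaled TPM. SUC1, a sucrose/proton symporter, had 20.5, 19.0 and 22.9 TPM in CsPYL1_5m iSB09 samples and 224, 297 and 272 TPM in CsPYL1_5m mock samples, against 140, 173 and 126.5 TPM in WT iSB09 samples and 217, 322 and 294.5 TPM in WT mock samples. NRT2:1, the high-affinity nitrate transporter and 1 of 6 tested genes of nitrate uptake and reduction, had a difference of -2.42 ± 0.52. AT1G15125, a methyltransferase-like gene, had the lowest difference of the class at -3.31 ± 0.30.

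Growth-related families had members in several classes. Of 23 tested expansins, which loosen cell walls, 5 were stronger decreases, 2 stronger increases and 2 opposite and up in CsPYL1_5m plants. The stronger decreases were 21.7% of the 23, compared with 1.31% of all genes tested, and the stronger increases 8.7%, compared with 5.7%. EXPA1 had 15.01, 12.8 and 14.4 TPM in CsPYL1_5m iSB09 samples and 110.5, 83.3 and 102 TPM in CsPYL1_5m mock samples, against 46.1, 86.8 and 46.5 TPM in WT iSB09 samples and 122, 125 and 94.9 TPM in WT mock samples. The members with a higher response were expansin-like genes (EXLB1 at 2.55 ± 0.22, EXLA1 at 1.81 ± 0.16, and EXLA2 and EXLA3 with WT responses of -0.02 and -0.06, adjusted p = 0.95 and 0.88). Without WT iSB09 replicate 2 or without WT mock replicate 2 there were 4 stronger increases and 0 opposite expansins up in CsPYL1_5m plants, and without WT mock replicate 1 there were 3 stronger decreases. Of 50 SAUR genes, small auxin-induced growth genes, 6 were stronger decreases, 4 stronger increases and 3 opposite and up in CsPYL1_5m plants. The stronger decreases were 12% of the 50, compared with 1.31% of all genes tested, and the stronger increases 8%, compared with 5.7%. Without WT iSB09 replicate 2, 22 of 55 tested SAUR genes were called, 10 of them stronger decreases and 5 opposite and down in CsPYL1_5m plants, and without WT mock replicate 2 the last of these counts was 2. AT4G34790 had 1.57, 0.641 and 0.57 TPM in CsPYL1_5m iSB09 samples and 9.94, 8.67 and 8.50 TPM in CsPYL1_5m mock samples, against 7.84, 8.41 and 8.82 TPM in WT iSB09 samples and 8.49, 9.05 and 8.46 TPM in WT mock samples. Only its CsPYL1_5m response passed the test (-2.69, and -0.05 in WT). Among 4 guard cell markers MYB60 was called here (-1.04 ± 0.16), and it lost the call without CsPYL1_5m iSB09 replicate 1 or 2, WT iSB09 replicate 1 or WT mock replicate 1, as well as with a pseudocount of 1 and in the RPKM table. Its difference was -1.16 to -0.96 over the 12 fits that each left out 1 sample. The summed level of the 4 markers was 29.8 to 35.2 TPM in CsPYL1_5m iSB09 samples and 42.1 to 45.1 TPM in CsPYL1_5m mock samples. In WT it was 53.7 to 58.0 TPM in iSB09 samples and 47.3 to 56.7 TPM in mock samples, and its part in the class was not tested. The sum joins markers that moved in different directions. KAT1 had 21.03, 19.6 and 21.97 TPM in CsPYL1_5m iSB09 samples and 10.58, 13.03 and 12.38 TPM in CsPYL1_5m mock samples. In WT it had 23.98, 27.42 and 29.87 TPM in iSB09 samples and 14.58, 9.914 and 14.49 TPM in mock samples. For MYB60, FAMA and HT1 every CsPYL1_5m iSB09 sample lay below every CsPYL1_5m mock sample.

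The weaker increase class had 10 genes, of which AT1G80440, AT3G15450, OXS3, BT5 and AT5G22920 were named by rule and the others after their values were seen. AT1G80440, a kelch-repeat gene, had 15.8, 16.7 and 22.02 TPM in CsPYL1_5m iSB09 samples and 13.8, 14.4 and 14.9 TPM in CsPYL1_5m mock samples, against 55.3, 122 and 71.2 TPM in WT iSB09 samples and 12.9, 10.9 and 12.0 TPM in WT mock samples. The WT iSB09 samples stood above all others, with a WT response of 2.67 and a difference of -2.19 ± 0.32 (adjusted p = 0.00040). BT2 and BT5 code for BTB-TAZ scaffold proteins. BT2 had 68.0, 68.6 and 66.3 TPM in CsPYL1_5m iSB09 samples and 70.1, 77.5 and 79.0 TPM in CsPYL1_5m mock samples, against 128.5, 227 and 157.5 TPM in WT iSB09 samples and 51.5, 50.9 and 56.4 TPM in WT mock samples. Its CsPYL1_5m response was 0.01, and with quantile normalization or unscaled TPM this sign turned and the gene fell among the opposite ones. BT5 had a difference of -1.49 ± 0.36. AT3G15450, an aluminium-induced family gene, was raised in both genotypes by the test, by 1.56 in CsPYL1_5m plants and 3.43 in WT.

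NCED4, a carotenoid cleavage dioxygenase of the same family as NCED3, had 10.09, 7.83 and 8.67 TPM in CsPYL1_5m iSB09 samples and 9.79, 7.78 and 7.21 TPM in CsPYL1_5m mock samples, against 40.1, 36.3 and 37.9 TPM in WT iSB09 samples and 19.5, 11.2 and 7.68 TPM in WT mock samples. Its difference was -1.38 ± 0.35, opposite in sign to that of NCED3. WT iSB09 replicate 2 was the highest of its group for 8 of the 10 genes. Of the 12 fits that each left out 1 sample, all 12 called AT1G80440, AT3G15450, BT2, BT5 and NCED4, 9 called AT2G17880, 6 called OXS3 and AT3G15630, and 4 called AT5G22920 and AT1G49210. The class held 5 to 29 genes over these fits, with 29 without WT iSB09 replicate 1, 6 without CsPYL1_5m iSB09 replicate 1, 6 without CsPYL1_5m mock replicate 1 and 5 without WT mock replicate 3.

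The weaker decrease class had 3 genes. AT4G19720, a chitinase-family glycosyl hydrolase gene, had 4.14, 5.19 and 4.82 TPM in CsPYL1_5m iSB09 samples and 4.61, 5.49 and 6.17 TPM in CsPYL1_5m mock samples, against 1.56, 1.30 and 1.30 TPM in WT iSB09 samples and 4.81, 3.41 and 4.42 TPM in WT mock samples. The WT iSB09 samples stood below the others, with a WT response of -1.30 and a difference of 1.28 ± 0.20 (adjusted p = 0.00069). AT4G19720 was called in all 12 fits that each left out 1 sample and kept its class in 10. Without CsPYL1_5m iSB09 replicate 1 or CsPYL1_5m mock replicate 3 it was opposite and up in CsPYL1_5m plants. The sign of its CsPYL1_5m response, which sets its class, was therefore not resolved. STS, annotated as stachyose synthase, had 1.47, 1.19 and 0.898 TPM in CsPYL1_5m iSB09 samples and 2.67, 2.27 and 3.94 TPM in CsPYL1_5m mock samples, against 0.433, 0.194 and 0.267 TPM in WT iSB09 samples and 2.39, 2.78 and 2.51 TPM in WT mock samples. Its difference of 1.03 ± 0.28 was called in 6 of 12 fits that each left out 1 sample and was 0.88 to 1.22 over them, and it lost the call with unscaled TPM. The third gene, the noncoding AT5G01495 (named after its values were seen), lies within another annotated gene and was measured by 5 and 7 reads in CsPYL1_5m iSB09 and mock samples and 0 and 11 reads in WT iSB09 and mock samples. The class held 11 genes without WT iSB09 replicate 1, 6 without WT mock replicate 1, 5 without CsPYL1_5m iSB09 replicate 2, CsPYL1_5m iSB09 replicate 3 or WT iSB09 replicate 3, and 1 without CsPYL1_5m mock replicate 3.

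Opposite genes up in CsPYL1_5m plants included ABI5-binding proteins. All 4 AFP family genes, whose proteins bind ABI5 and damp ABA responses, were called. AFP1 and AFP3 were stronger increases (3.65 ± 0.14 and 3.87 ± 0.27), and TMAC2 and AFP2 were opposite. TMAC2 had 62.0, 68.6 and 78.1 TPM in CsPYL1_5m iSB09 samples and 13.4, 12.8 and 12.6 TPM in CsPYL1_5m mock samples, against 7.96, 12.3 and 9.08 TPM in WT iSB09 samples and 14.2, 12.0 and 13.8 TPM in WT mock samples. Its responses were 2.54 in CsPYL1_5m plants and -0.45 in WT (adjusted p = 0.033), and the WT groups overlapped. AFP2 had 18.0, 19.9 and 19.5 TPM in CsPYL1_5m iSB09 samples and 5.91, 5.94 and 4.87 TPM in CsPYL1_5m mock samples, against 3.81, 3.64 and 4.33 TPM in WT iSB09 samples and 5.44, 4.57 and 5.95 TPM in WT mock samples, where the WT groups did not overlap (-0.39, adjusted p = 0.019). Both kept their class in all 12 fits that each left out 1 sample.

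Among the genes named by size in this class, AT3G13672, a TRAF-like gene, had 47.3, 54.5 and 52.0 TPM in CsPYL1_5m iSB09 samples and 3.20, 5.23 and 4.62 TPM in CsPYL1_5m mock samples, against 2.43, 2.26 and 3.58 TPM in WT iSB09 samples and 4.64, 3.36 and 4.68 TPM in WT mock samples. Its responses were 3.60 in CsPYL1_5m plants and -0.55 in WT (adjusted p = 0.041), with a difference of 4.14 ± 0.25. The SAUR gene AT4G12410, the dirigent-like AT2G21100 and the MYB gene CPL3 had differences of 2.59, 2.55 and 2.49, with WT responses of -0.63, -0.80 and -0.56 (adjusted p = 0.029, 0.027 and 0.018), and each kept its class in all 12 fits that left out 1 sample.

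Small heat shock proteins were also in this class. Stronger increases were 8.11% and stronger decreases 1.35% of 74 tested heat shock factors and proteins, near the 5.7% and 1.31% of all genes tested. In any class 18.9% were called, compared with 9.77%. Of the 74, 6 were stronger increases, 1 a stronger decrease and 7 opposite and up in CsPYL1_5m plants, none of the 7 with a WT response past the test. The 7 became 4 without CsPYL1_5m iSB09 replicate 2, CsPYL1_5m mock replicate 1 or 3, or WT mock replicate 1. ATHSP22.0, a small chaperone, had 26.7, 23.8 and 25.2 TPM in CsPYL1_5m iSB09 samples and 0.816, 0.755 and 1.14 TPM in CsPYL1_5m mock samples, against 0.3, 2.04 and 1.06 TPM in WT iSB09 samples and 0.896, 2.53 and 1.73 TPM in WT mock samples. The CsPYL1_5m iSB09 samples stood above every other sample, and the difference was 4.88 ± 0.51 (adjusted p = 3.4e-05). HSP17.6A had 6.67, 13.8 and 10.2 TPM in CsPYL1_5m iSB09 samples and 1.02, 4.56 and 1.33 TPM in CsPYL1_5m mock samples, against 3.87, 2.84 and 3.03 TPM in WT iSB09 samples and 13.8, 3.22 and 2.56 TPM in WT mock samples. WT mock replicate 1 reached the CsPYL1_5m iSB09 range for HSP17.6A, and its difference of 2.80 ± 0.78 lost the call without CsPYL1_5m iSB09 replicate 2, CsPYL1_5m mock replicate 1 or CsPYL1_5m mock replicate 3, with values of 2.11 to 3.33 over the 12 such fits.

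Of 10 SWEET sugar transporters 2 were stronger increases, 1 a stronger decrease and 2 opposite and up in CsPYL1_5m plants. Together 50% were called, compared with 9.77% of all genes tested. SWEET4 had 44.4, 53.6 and 53.9 TPM in CsPYL1_5m iSB09 samples and 0.956, 1.099 and 0.925 TPM in CsPYL1_5m mock samples, against 3.67, 2.84 and 3.71 TPM in WT iSB09 samples and 0.974, 0.706 and 1.35 TPM in WT mock samples (difference 3.87 ± 0.21). SWEET13 was opposite in sign, with a WT response of -0.28 (adjusted p = 0.70), and its WT iSB09 level was 3.79, 0.494 and 4.58 TPM over the replicates. Without replicate 2 of that group its difference of 2.70 became 1.97 and its class a stronger increase.

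Opposite genes down in CsPYL1_5m plants included neighbouring TIR-domain genes. AT1G72910 and AT1G72920 code for proteins with the domain of Toll-type immune receptors. AT1G72910 had 1.49, 0.826 and 1.42 TPM in CsPYL1_5m iSB09 samples and 4.25, 2.77 and 4.51 TPM in CsPYL1_5m mock samples, against 7.21, 14.5 and 10.3 TPM in WT iSB09 samples and 3.31, 4.67 and 3.33 TPM in WT mock samples. AT1G72920 had 2.35, 1.44 and 2.38 TPM in CsPYL1_5m iSB09 samples and 6.51, 5.32 and 5.79 TPM in CsPYL1_5m mock samples, against 9.31, 14.5 and 12.4 TPM in WT iSB09 samples and 4.63, 5.83 and 3.84 TPM in WT mock samples. For both genes the iSB09 samples lay below mock in CsPYL1_5m plants and above mock in WT without overlap, with responses of -1.19 and 1.35 for AT1G72910 and of -1.20 and 1.25 for AT1G72920. The next genes along chromosome 1, named after their values were seen, were TIR (AT1G72930), a stronger decrease with a difference of -1.89 ± 0.27, and AT1G72940, opposite at -1.15 ± 0.18 with a WT response of 0.97 (adjusted p = 0.00027). The 4 genes span chr1:27435306-27443859 and reads that matched more than 1 place had been discarded before counting, so similar copies are measured by their unique parts.

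AT2G36690, an oxygenase-family gene, had 14.4, 11.2 and 18.0 TPM in CsPYL1_5m iSB09 samples and 41.0, 38.4 and 35.4 TPM in CsPYL1_5m mock samples, against 45.3, 148 and 71.3 TPM in WT iSB09 samples and 33.7, 38.5 and 30.9 TPM in WT mock samples. With the 2 TIR-domain genes it was the only gene tested whose responses both passed the test and exceeded 1 in opposite directions, at -1.23 and 1.18. Without WT iSB09 replicate 2 the WT response of AT2G36690 was 0.71 (adjusted p = 0.023), below 1, and without WT mock replicate 3 it was 1.09 and did not pass the test (adjusted p = 0.070). RAV2, a repressor of flowering, had 16.9, 14.9 and 20.7 TPM in CsPYL1_5m iSB09 samples and 59.3, 62.8 and 71.9 TPM in CsPYL1_5m mock samples, against 78.6, 82.9 and 71.5 TPM in WT iSB09 samples and 52.9, 57.9 and 51.5 TPM in WT mock samples. Its responses were -1.70 in CsPYL1_5m plants and 0.52 in WT (adjusted p = 0.0083), with a difference of -2.22 ± 0.17, and it kept its class in all 12 fits that left out 1 sample. ACHT5, an atypical thioredoxin, had a difference of -2.34 ± 0.31 and a WT response of 1.74 (adjusted p = 0.00022).

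Cysteine-rich receptor-like kinases (CRKs), many of which respond to pathogens and oxidative stress, were also in this class, but their count rested on 1 sample. Of 29 tested CRK genes 8 were opposite and down in CsPYL1_5m plants, 2 were stronger decreases and 1 was a stronger increase. CRK22 had 7.31, 5.59 and 6.99 TPM in CsPYL1_5m iSB09 samples and 26.2, 25.3 and 25.5 TPM in CsPYL1_5m mock samples, against 26.1, 81.7 and 31.5 TPM in WT iSB09 samples and 29.9, 32.7 and 22.9 TPM in WT mock samples. WT iSB09 replicate 2 stood far above its group, and the WT response did not pass the test (0.52, adjusted p = 0.27). Without that replicate 1 of the 29 was opposite and down, CRK22 at -1.73 in place of -2.25, and 4 were stronger decreases, while CRK2, CRK3, CRK18, CRK19, CRK21 and CRK34 fell short of the fold threshold, at -0.94 to -0.75 with adjusted p of 0.00014 to 0.0068. Without CsPYL1_5m iSB09 replicate 2 the 8 became 5. WRKY49, with the lowest difference of all genes (-4.32 ± 0.61), had 1.94, 1.68 and 1.52 TPM in CsPYL1_5m iSB09 samples and 28.4, 35.8 and 22.2 TPM in CsPYL1_5m mock samples, against 20.9, 109 and 46.4 TPM in WT iSB09 samples and 26.9, 32.0 and 25.5 TPM in WT mock samples. Its WT response did not pass (0.75, adjusted p = 0.22), and without WT iSB09 replicate 2 the difference was -3.70. Among 50 WRKY factors 4 were opposite and down in CsPYL1_5m plants, 3 opposite and up, 2 stronger increases and 1 a stronger decrease, and without that replicate these counts were 2, 4, 5 and 2. The 4 became 1 without CsPYL1_5m iSB09 replicate 2, and the stronger increases numbered 4 without CsPYL1_5m mock replicate 2. In the fit reported, stronger increases were 4% of the WRKY factors, compared with 5.7% of all genes tested. In any class 20% were called, compared with 9.77%.

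**Figure D5:**
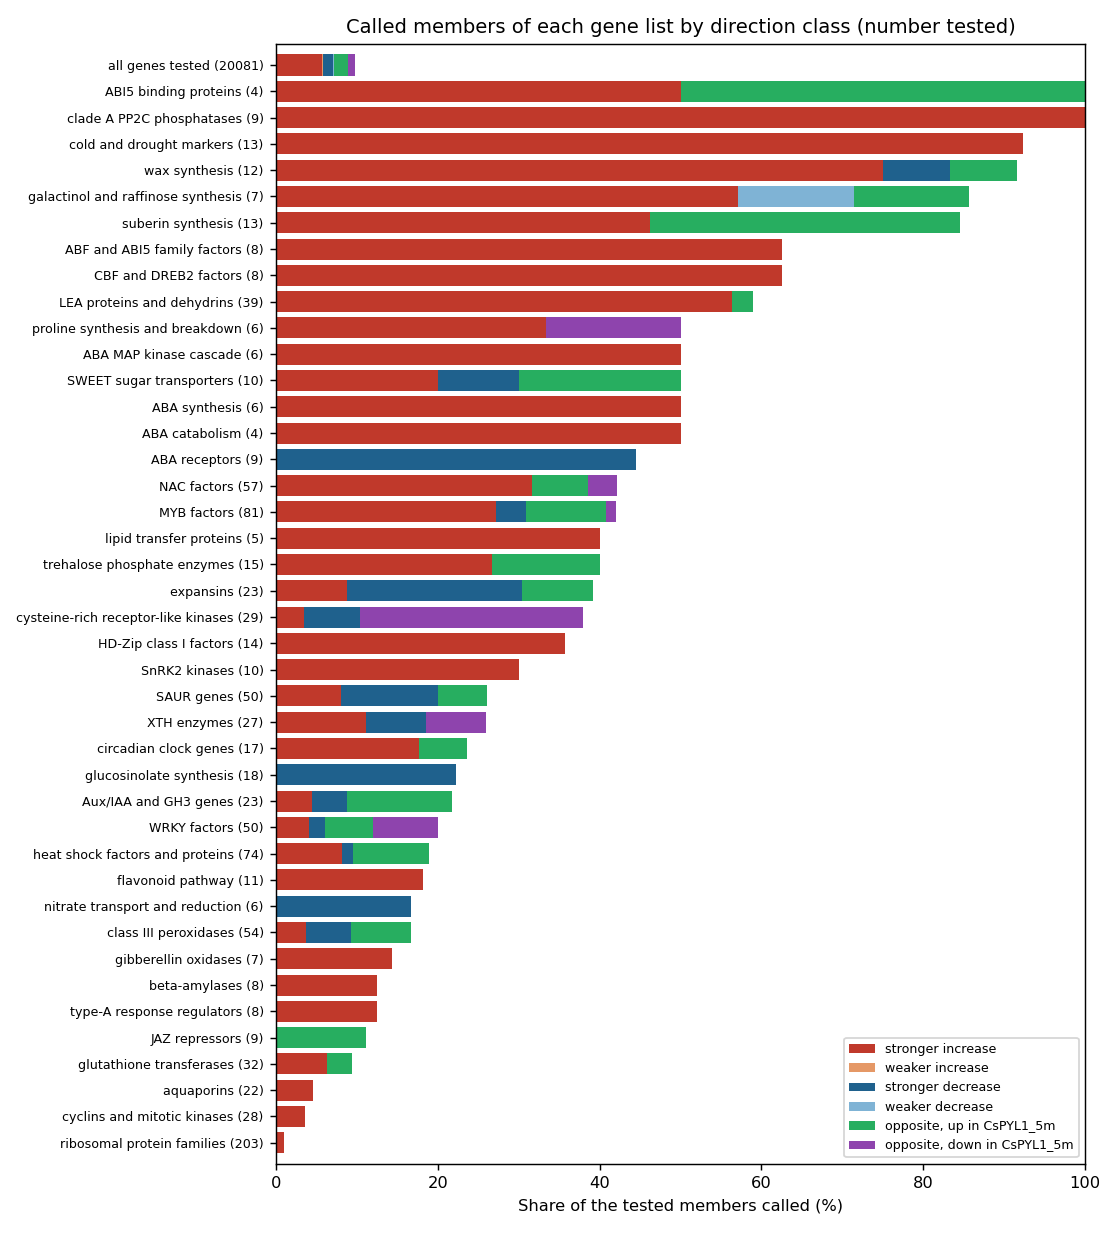
Share of the tested genes of each gene list with a called member (x axis, percent) called in each direction class, stacked by class, with all genes tested as the top bar. Clade A PP2C phosphatases and ABI5-binding proteins reach 100% called, cold and drought markers 92.3%, and all genes tested 9.77%.

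Genes just inside the threshold on size included AT3G20640 at -1 (adjusted p = 0.016), and SGT1A at -0.9994 (adjusted p = 0.010) was just outside. The called gene with the highest adjusted p was AT3G20395 (0.0498), and AT2G24600 was not called at -1.13 (adjusted p = 0.0503). Reads were counted without regard to strand, which leaves named genes that overlap another annotated gene uncertain to that extent. These were LEA7, GBF3, ABF3, AFP1, AFP2, DREB2A, P5CS1, EXLA1, AT3G13672, AT2G21100, AT1G15125, AT3G15450, BT5, AT3G15630, AT5G01495 and ACHT5.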

How the data were processed

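RNA-seq libraries of 12 seedling samples (4 groups of 3) had been sequenced as 100-base read pairs on a DNBSEQ platform. Per the methods of the study, the authors trimmed the reads with cutadapt, kept pairs longer than 20 bases, mapped them with HISAT2 to TAIR10, discarded pairs that mapped to more than 1 place with SAMtools and ran HTSeq-count on the Araport11 genes, unstranded by the name of the deposited tables. The authors deposited TPM (per kilobase of exon model, then scaled to the same total in every sample) and RPKM (per kilobase and scaled to the reads of the sample), 2 tables with 24 columns in all, of which 0 were left unused. Tool versions are not given in the sources used here. The study ran DESeq2 on counts, which were not analysed here.

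A gene was kept when every replicate of any 1 group had 1 TPM or more (20081 of 37336). TPM was scaled by median-ratio size factors, transformed to log2(TPM + 0.5) and fitted over the 4 groups with limma 3.58.1 in R 4.3.3 (moderated test with an intensity trend, Benjamini-Hochberg adjustment over all genes tested). A gene was called where the adjusted p was below 0.05 and the absolute log2 difference above 1, and its class came from the signs of the 2 responses. The script was tested on simulated data. Adjusted p-values in the text are from this fit. The 5 called genes of largest difference in each class (mean of at least 5 TPM in a group, both responses past the test where at least 5 genes had that) and up to 4 called members of each list and class were named, 206 genes in all, from 43 lists. The members and lists were chosen with earlier results of these data known.

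Depth came from the RPKM table: values were whole multiples of 1 read (within 0.02) in all samples for 73.3% of detected annotated genes, and reads were recovered for 98.6%. On a 1-kb gene, 3 reads were worth 0.158 to 0.235 TPM. Limits from depth cover counting error only. Names and positions are from the TAIR10.1 RefSeq annotation, which matched 37051 identifiers. The other 285, from the organelles, were kept in the fit without annotation (131 tested). Promoters were read from that genome and searched for 12 motifs on both strands. Python 3.11.15 was used, and 23 alternatives were run. Replicates are described as independent experiments, but the labels do not tie a replicate number to a shared day.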

Additional observations from a re-analysis of the deposited data

Results flagged for a closer look

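The iSB09 response differed between CsPYL1_5m and WT seedlings for 1961 genes by a test of the difference itself (limma, adjusted p below 0.05 and an absolute log2 difference above 1), which is the comparison described above.

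For 3 genes both responses were called and pointed in opposite directions. The differences (CsPYL1_5m minus WT) were -2.54 for AT1G72910 (adjusted p = 0.00038), -2.45 for AT1G72920 (adjusted p = 8.2e-05) and -2.41 for AT2G36690 (adjusted p = 0.0025), and the signs of both responses were kept by all 3 genes in each of the 12 fits that left out 1 sample. WT iSB09 replicate 2 was the highest of its group for each of them. Without it the differences were -2.29, -2.30 and -1.93, and the WT response of AT2G36690 was 0.71, no longer above 1. The WT response of AT2G36690 also missed the test without WT mock replicate 3 (1.09, adjusted p = 0.070). The other genes had both responses above 1 and past the test in each of the 12 fits.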

How the results depend on the processing

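The number of called genes, 1961, was 1802 to 2134 over the fits that each left out 1 sample, and 5431 where the adjusted p alone was required, which gave 2326 stronger and 40 weaker increases, 1351 stronger and 27 weaker decreases, and 818 (up in CsPYL1_5m) and 869 (down in CsPYL1_5m) opposite genes. Leaving out 1 sample gave 1076 to 1251 stronger increases, 5 to 29 weaker increases, 231 to 320 stronger decreases, 1 to 11 weaker decreases, 273 to 464 opposite genes up in CsPYL1_5m plants and 134 to 305 down. With TPM left unscaled there were 17 weaker increases, 409 stronger decreases and 296 opposite genes down in CsPYL1_5m plants. A mean of at least 5 TPM over all samples left 0 weaker decreases and 220 opposite genes up in CsPYL1_5m plants. Weaker decreases numbered 5 with a pseudocount of 0.1 and 1 in the RPKM table. The cause was not tested, apart from the filters and thresholds that test fewer genes or ask for less. Of the 357 single genes examined, 277 stayed called in every alternative that tested them and 0 turned round. The class was kept in every alternative by 136 of 171 stronger increases, 27 of 38 stronger decreases, 44 of 85 and 27 of 50 opposite genes up and down in CsPYL1_5m plants, 4 of 10 weaker increases and 0 of 3 weaker decreases.

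Same-numbered replicates correlated at 0.159, 0.298 and 0.201 between WT iSB09 and WT mock samples and at -0.135 to 0.112 between the other pairs of groups, so they deviated together within WT but not across the 4 groups that enter the difference, and the numbers were not taken as pairing. A fit with the replicate number as a block called 1974 genes, with 1146 stronger increases, 9 weaker increases, 268 stronger decreases, 3 weaker decreases, 347 opposite genes up in CsPYL1_5m plants and 201 down. Of the single genes examined, SHY2, MYB54, NAC060 and AT1G49210 were not called in it.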

Other observations

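Gene groups of growth and metabolism outside the ABA pathway were called at or below the share of all genes (9.77%) in several cases. The share called was above it for clock genes (4 of 17, 23.5%), flavonoid pathway genes (2 of 11, 18.2%), gibberellin oxidases (1 of 7, 14.3%) and beta-amylases (1 of 8, 12.5%). In lists of 7 or 8 genes 1 call is enough to exceed 9.77%, so these shares do not set the last 2 lists apart. Among 46 light-harvesting and photosystem genes 0 were called by limma, with 1 called as a stronger decrease when TPM was left unscaled or without CsPYL1_5m iSB09 replicate 1, CsPYL1_5m mock replicate 2 or WT mock replicate 2, and among 203 ribosomal protein genes 2 were. Of 10 auxin transporters 0 were called, but 2 were without WT iSB09 replicate 2 and 3 with unscaled TPM, all with a lower response in CsPYL1_5m plants. Of 22 aquaporins the plasma membrane water channel PIP1;4 was a stronger increase (1.35), and of 28 cyclins and mitotic kinases CYCD4;2 was (1.08). CYCD4;2 was called in 9 of the 12 fits that left out 1 sample and kept its class in 7. It lost the call with unscaled TPM, with a pseudocount of 1 and in the RPKM table. Its WT response of 0.08 did not pass the test. Among 7 gibberellin oxidases GA2OX6, which inactivates gibberellins, was a stronger increase (3.00), and among 8 beta-amylases, which degrade starch, BAM1 was (2.73). Of 17 clock genes 3 were stronger increases, CCA1 among them at 1.98, and PRR9 was opposite and up in CsPYL1_5m plants at 1.35 with a WT response of -0.03 (adjusted p = 0.92). Of 11 flavonoid pathway genes the anthocyanin regulators PAP1 (2.69) and MYB90 (2.17) were stronger increases. PAP1 was called in 7 of the 12 fits that left out 1 sample and kept its class in 4, with an adjusted p of up to 0.063. Without WT mock replicate 1 or CsPYL1_5m mock replicate 2, 5 of the 11 genes were called. With quantile normalization PRR9 became a stronger increase and MYB90 opposite in sign.

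Of the other families, XTH enzymes, class III peroxidases and Aux/IAA and GH3 genes held called members with higher and with lower responses. In the fit reported, the called glutathione transferases, type-A response regulators and JAZ repressors all had a higher response in CsPYL1_5m plants. They were called at 9.38% (3 of 32), 12.5% (1 of 8) and 11.1% (1 of 9), compared with 9.77% of all genes tested. Of 27 XTH enzymes, which remodel xyloglucan, 3 were stronger increases (TCH4 at 1.45), 2 stronger decreases and 2 opposite and down in CsPYL1_5m plants, with XTH31 at -1.90 and XTH20 at -1.88. Of 54 class III peroxidases 2 were stronger increases, 3 stronger decreases and 4 opposite and up in CsPYL1_5m plants, with 2 of the last kind without CsPYL1_5m iSB09 replicate 2 and 2 opposite and down without WT iSB09 replicate 1. The stronger increases were 3.7% of the 54, compared with 5.7% of all genes tested, and the stronger decreases 5.56%, compared with 1.31%. Of 32 glutathione transferases 2 were stronger increases, GSTU9 among them at 2.85, and 1 was opposite and up in CsPYL1_5m plants, with 6 called without CsPYL1_5m mock replicate 2 and 5 without WT mock replicate 1. Of 23 Aux/IAA and GH3 genes of auxin response, 3 were opposite and up in CsPYL1_5m plants (SHY2, IAA14 and GH3.3, at 1.21, 1.1 and 1.02, with WT responses of -0.47, -0.50 and -0.74 and adjusted p = 0.24, 0.12 and 0.019), 1 was a stronger increase and 1 a stronger decrease, and the opposite ones numbered 0 with unscaled TPM or without WT iSB09 replicate 2, CsPYL1_5m iSB09 replicate 3, CsPYL1_5m mock replicate 3 or WT mock replicate 2, and 1 without CsPYL1_5m iSB09 replicate 2, CsPYL1_5m mock replicate 1 or WT mock replicate 3. Of 8 type-A response regulators RR16 was a stronger increase (1.06), a call lost with unscaled TPM and without WT iSB09 replicate 1. Of 9 JAZ repressors of jasmonate signalling, JAZ1 was opposite and up in CsPYL1_5m plants (1.30 ± 0.29), with a WT response of -0.14 (adjusted p = 0.66).

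The seed storage gene SESA3, a marker set beside the classes, was not called but was listed above 0 in every CsPYL1_5m sample and at 0 in every WT sample. It had 2.67, 3.23 and 4.12 TPM in CsPYL1_5m iSB09 samples and 4.81, 6.04 and 5.91 TPM in CsPYL1_5m mock samples. Whether these reads came from the gene itself or from sequence of the pAlligator2 transformation vector was not tested.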
